A study of Mus musculus with 6 samples.

Results

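Gpnmb and 40 genes of the lysosome were followed in 4T1 cells, a mammary carcinoma line of BALB/c mouse origin. Gpnmb had been chosen by its measured difference between the groups on these arrays, and the 40 others were listed by function, with earlier results of the arrays known. They are the MiT/TFE transcription factors, lysosomal membrane and cholesterol transport proteins, proteases, glycosidases and sulfatases, lipid hydrolases with their activators, and subunits of the lysosomal proton pump, which makes 41 genes in all. A probe was kept when its detection p, which compares it with the negative control beads, was under 0.05 on at least 3 of the 6 arrays, and the brightest probe kept stood for its gene. This left 39 of the 41 genes, that is Gpnmb and 38 lysosomal genes, among 9348 genes tested in all. Mitf and Tfeb had no probe kept.

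Total RNA of 6 cultures had been hybridised to Illumina MouseWG-6 bead arrays, with 1 array per culture. The 3 cultures of 4T1-MMP3lo held 4T1 cells stably transfected with a short hairpin RNA against Mmp3, which encodes the secreted matrix metalloproteinase stromelysin-1. The 3 cultures of 4T1-SC held 4T1 cells transfected with a scrambled control vector. All were grown in RPMI with serum and came from the same parental line. The labels carry 3 dates, each shared by 1 culture of either group, so that replicate 1 of both groups belongs to the first date and replicates 2 and 3 to the later dates. What was done on those dates is not stated in the labels. All 4T1-MMP3lo labels carry the same suffix, which may stand for a single clone. The n is therefore a number of cultures whose cells may share 1 selection, and p-values between the groups measure the spread between these cultures only. In the date fit each date has 1 array per group. Its p-values rest on what group and date leave over, and they do not measure the spread between dates.

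On these arrays the hairpin's target gene did not bear out the labels. The group means of Mmp3 differed by less than the spread between arrays. The paper reports a knockdown of the target in this cell line, in RNA by qPCR and in protein by ELISA. Whether those assays used the cultures hybridised here is not stated. Log2 intensities of Mmp3 were 10.64, 13.40 and 13.33 in the arrays labelled 4T1-MMP3lo, against 11.52, 12.98 and 13.04 in 4T1-SC, a log2 difference of −0.06 (SE 0.74, n = 3 per group, adjusted p = 0.99 from limma). Mmp3 was lower in 4T1-MMP3lo on the first date and higher on the later dates. This change of the group difference was −1.24 (SE 0.28) and did not pass after adjustment over all genes. Mmp3 did differ by date, by −2.11 on the first date relative to the later dates (SE 0.30, adjusted p = 0.0485 from limma), and that call was lost in 6 of 13 alternatives. Between 36.9% and 38.8% of the 45281 probes were detected per array. The epithelial markers Krt8 and Krt18 were detected on all 6 arrays, although no probe of Epcam was kept. Of 7 epithelial markers kept out of 8, none passed the test between the groups, which 1.09% of all genes passed. Before adjustment 2 passed as lower in 4T1-MMP3lo (against 5.34% of all genes). All 7 had lower means in 4T1-MMP3lo, while 52.3% of all genes had higher ones. Their median log2 difference was −0.40, beside 0.02 over all genes. Within the 3 dates this median was −0.07, −0.48 and −0.70, so it was small on the first date.

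Lysosomes break down proteins, glycans and lipids in an acidic lumen that a proton-pumping ATPase maintains. Their hydrolases are soluble enzymes delivered through the mannose 6-phosphate pathway, while proteins such as Lamp1 and Lamp2 line the membrane. The transcription factors Mitf, Tfeb and Tfe3 stay in the cytoplasm when the kinase complex mTORC1 is active at the lysosome and enter the nucleus when it is not. They bind a short element, named CLEAR, that lies close to the start of many lysosomal genes. Gpnmb encodes a transmembrane glycoprotein of melanosomes and lysosomes that is known from melanocytes, osteoclasts and macrophages, and also from breast carcinomas.

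The CLEAR core was searched as GTCACGTG on both strands of the 300 bases around each start site (250 before it and 50 after it) in the RefSeq promoter table of GRCm38.p6, where 36 of the 41 genes have an entry. It was found in 11 of these 36 genes (30.6%), against 2.55% of the 27025 genes in the table. The shorter E-box CACGTG, which the core contains, was found in 13 of the 36 (36.1%), against 8.09% of all genes, and TCATGTG in 6 (16.7%), against 4.31%. The element is printed for 6 of the 11 genes, with the matching bases in capitals, because the results ask whether genes that share it moved together. The Cln3 match reads on both strands and spans the full palindrome.
Arsa (chr15:89477427-89477450, - strand): aactcagtGTCACGTGttgtctgc
Ctsa (chr2:164833751-164833774, + strand): agcaaactGTCACGTGatgcagat
Cln3 (chr7:126583344-126583367, - strand): cgggtactGTCACGTGACccccaa
Naglu (chr11:101070011-101070034, + strand): accttcagGTCACGTGgcccgagg
Lamp1 (chr8:13159125-13159148, + strand): ccgactggCACGTGACcacatcac
Atp6v0d1 (chr8:105566054-105566077, - strand): ctactgcgGTCACGTGagacgcgg
Among the genes measured, the median log2 difference between 4T1-MMP3lo and 4T1-SC was 0.08 for the 11 with GTCACGTG and 0.19 for the 22 without it. For CACGTG it was 0.08 for the 13 with it and 0.24 for the 20 without it, and for TCATGTG it ran the other way, at 0.27 for the 6 with it and 0.15 for the 27 without it. A match is a description of these letters and not of binding.

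Gpnmb was chosen for its difference between the groups, so its values by group are a description with no test. Its brightest probe had log2 intensities of 9.49, 10.94 and 10.90 in 4T1-MMP3lo, against 6.34, 7.79 and 8.25 in 4T1-SC. Every 4T1-MMP3lo array lay above every 4T1-SC array, and in both groups the first date was the lowest. The means were 10.44 ± 0.83 in 4T1-MMP3lo and 7.46 ± 1.0 in 4T1-SC (SD, n = 3 each), a log2 difference of 2.98 (SE 0.55) or 7.90-fold. Within the 3 dates the difference was 3.15, 3.14 and 2.65. The scanner intensities before any correction were 862, 1813 and 2153 in 4T1-MMP3lo, against 143, 344 and 388 in 4T1-SC, so the groups were separated before normalization. In bulk RNA, more cells with Gpnmb and more Gpnmb RNA per cell cannot be told apart.

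The other 2, dimmer, probes of Gpnmb that were kept were also higher in 4T1-MMP3lo. The second probe had log2 intensities of 6.10, 7.57 and 7.67 in 4T1-MMP3lo, against 4.61, 4.90 and 5.37 in 4T1-SC, a difference of 2.16 (SE 0.41). It was detected on 3 arrays of 4T1-MMP3lo and on 2 of 4T1-SC. The third probe was near the background, at 4.77, 4.96 and 4.97 in 4T1-MMP3lo and at 4.31, 4.38 and 4.43 in 4T1-SC, where it was detected on no array. Against the lowest signal detected on those arrays it was at least 1.11-fold higher in 4T1-MMP3lo, a bound that the dim signal sets. Since it passed the filter only through its 4T1-MMP3lo arrays, its direction was set by that filter and adds no support.

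**Figure D1:**
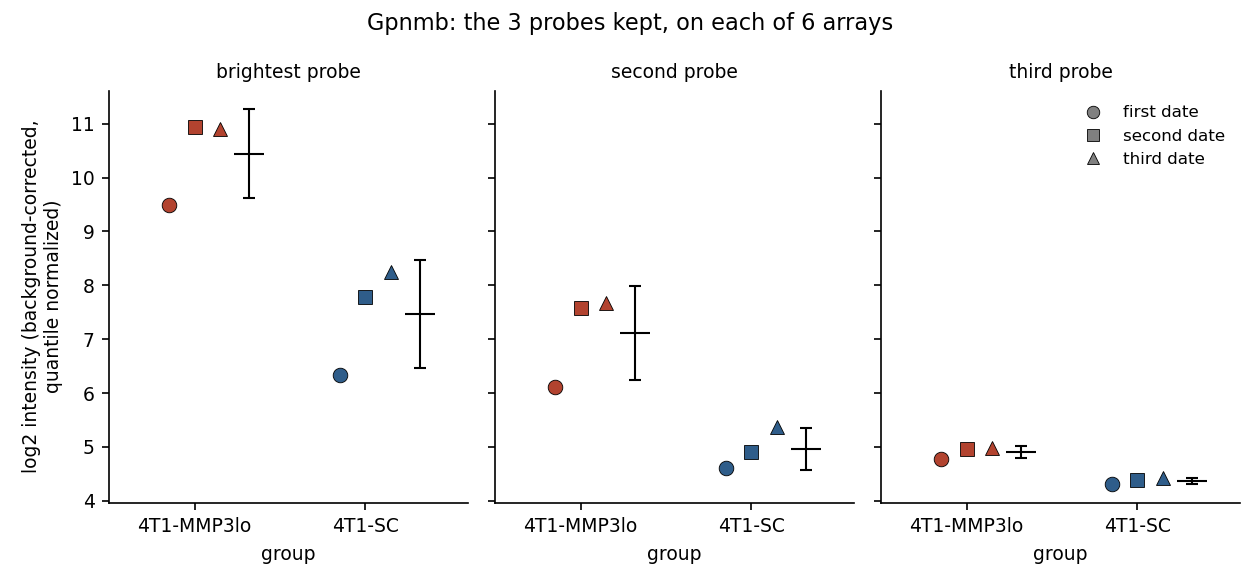
Log2 intensity (y axis) of the 3 Gpnmb probes kept, in 4T1-MMP3lo (red, left) and 4T1-SC (blue, right), with 1 point per array and the shape giving the date. The bar beside each group is the mean ± SD of n = 3 arrays, and the brightest and the second probe lie higher on all 3 4T1-MMP3lo arrays than on any 4T1-SC array. The third probe was kept only through its detection in 4T1-MMP3lo, so its order follows from the filter.

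The date was not used to choose Gpnmb, so Gpnmb was tested by date. The split into the first and the later dates was, like the other tests, chosen with earlier results of these data known. In a fit with group and date, Gpnmb was lower on the first date than on the later dates by a log2 difference of −1.56 (SE 0.20, 95% interval −2.04 to −1.08, adjusted p = 0.038 from limma). The change was −1.43 within 4T1-MMP3lo and −1.69 within 4T1-SC. The group difference on the first date exceeded that on the later dates by 0.26 (SE 0.35, adjusted p = 0.752 from limma), with an interval of −0.58 to 1.09. The date call was lost in 10 of 13 alternatives, where the adjusted p reached 0.298. The promoter of Gpnmb is printed because Gpnmb is a known target of Mitf and had the largest difference among the 39 genes. None of the 3 motifs searched occurs in it.
Gpnmb (chr6:49036268-49036567, + strand): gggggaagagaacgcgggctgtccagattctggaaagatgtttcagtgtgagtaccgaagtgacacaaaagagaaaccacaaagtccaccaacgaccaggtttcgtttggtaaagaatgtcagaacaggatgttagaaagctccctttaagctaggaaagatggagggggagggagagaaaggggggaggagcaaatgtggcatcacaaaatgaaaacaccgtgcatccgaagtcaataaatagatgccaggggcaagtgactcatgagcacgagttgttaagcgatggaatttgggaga

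Of the MiT/TFE factors that could act on such elements, Tfe3 alone had a probe kept. Tfe3 had log2 intensities of 6.81, 7.14 and 7.05 in 4T1-MMP3lo, against 6.20, 6.63 and 6.56 in 4T1-SC. The groups did not overlap, and the difference of 0.54 (SE 0.20) was 0.61, 0.51 and 0.49 within the 3 dates, but it missed the threshold after adjustment over all genes (adjusted p = 0.324 from limma). The 2 probes of Mitf were detected on 0 and on 1 array, and those of Tfeb on 0 and on 2 arrays, so neither gene was well above background.

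The question was whether the lysosomal genes were higher together with Gpnmb. Manba alone of the 38 genes passed the test between the groups, higher in 4T1-MMP3lo, and none passed in the other direction. The share was 2.63%, beside 0.599% of all 9348 genes that passed as higher in 4T1-MMP3lo and 0.492% that passed as lower. Before adjustment, 6 of the 38 had a p under 0.05 and a higher mean in 4T1-MMP3lo (15.8%, against 6.84% of all genes), namely Tfe3, Npc1, Hexa, Neu1, Manba and Arsa, and 0 had a lower one (against 5.34%). The log2 difference was above 0 for 28 of the 38 (73.7%, against 52.3% of all genes). Its median over the 38 was 0.14, beside 0.02 over all genes, and 0.23, 0.20 and 0.11 within the 3 dates. Without the first array of 4T1-SC it was 0.02, beside 0.03 over all genes, but the first date was then left in 4T1-MMP3lo alone. On the later dates alone, where both groups share the dates, it was 0.14, beside 0.02 over all genes (an alternative chosen after seeing the data). In 6 members every 4T1-MMP3lo array lay above every 4T1-SC array (15.8%, against 9.62% of all genes), and in none did the reverse hold (against 8.07%).

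**Figure D2:**
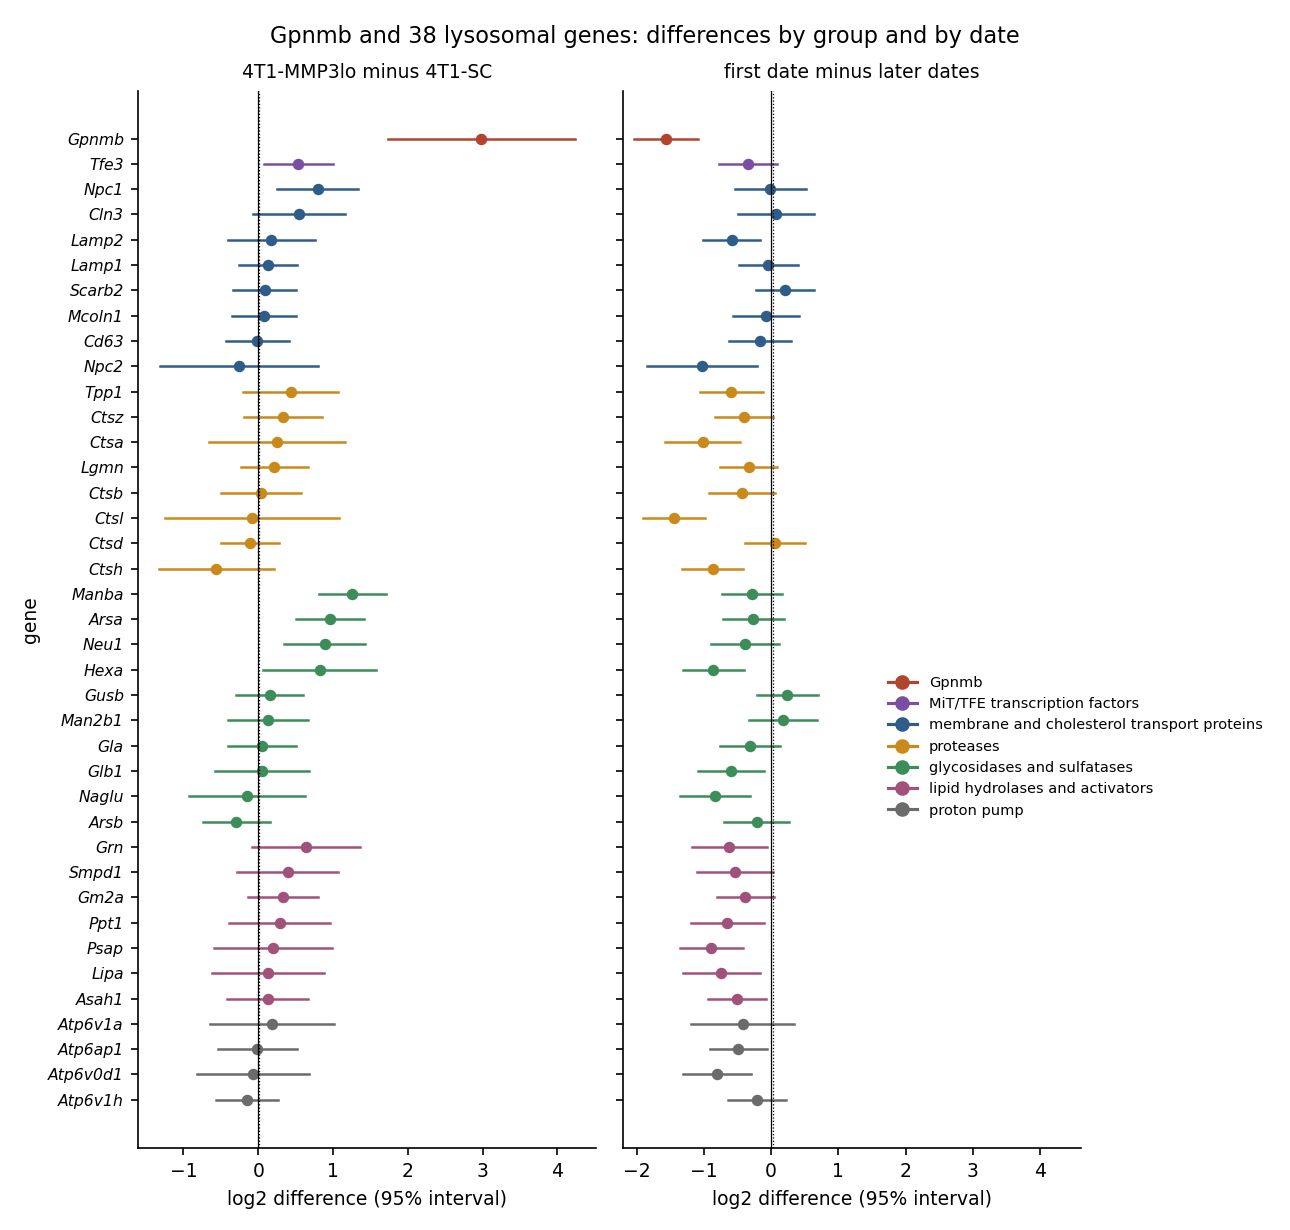
Log2 difference (x axis) of Gpnmb and 38 lysosomal genes (rows, coloured by role), left for 4T1-MMP3lo minus 4T1-SC and right for the first date minus the later dates, with 95% intervals from limma (n = 3 arrays per group). The dotted line is the median of all 9348 genes, and 28 of the 38 lysosomal genes lie above 0 by group while 33 of the 38 lie below 0 by date. Among the 33 is Gla, which was detected on later arrays only, so the filter fixed its direction by date.

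Among the 10 glycosidases and sulfatases, Manba, the beta-mannosidase that removes terminal mannose in the last steps of N-glycan breakdown, rose in 4T1-MMP3lo. Its log2 intensities were 9.13, 9.45 and 9.42 in 4T1-MMP3lo, against 7.90, 7.99 and 8.32 in 4T1-SC. The groups did not overlap, and the gap between them was wider than the spread of either. The means were 9.33 ± 0.18 in 4T1-MMP3lo and 8.07 ± 0.22 in 4T1-SC (SD, n = 3 each), a difference of 1.26 (SE 0.20, 95% interval 0.81 to 1.71, adjusted p = 0.0299 from limma), or 2.39-fold. The difference was 1.22, 1.46 and 1.09 within the 3 dates, and 0.94 (SE 0.23) on the other Manba probe. The call was lost in 9 of 15 alternatives, with the adjusted p reaching 0.208, while the difference stayed between 1.03 and 1.38. Its promoter is shown because Manba was the lysosomal gene that passed, and it holds none of the 3 motifs.
Manba (chr3:135485361-135485660, + strand): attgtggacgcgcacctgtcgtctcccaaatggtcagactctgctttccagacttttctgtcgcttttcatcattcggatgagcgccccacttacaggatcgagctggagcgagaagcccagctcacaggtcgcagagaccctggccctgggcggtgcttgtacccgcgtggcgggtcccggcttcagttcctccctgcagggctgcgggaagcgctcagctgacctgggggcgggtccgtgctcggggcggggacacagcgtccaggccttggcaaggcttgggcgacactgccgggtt

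The genes with the next largest group differences in this role were also enzymes of glycan and sulfatide breakdown, and none of them passed after adjustment. Arsa, which encodes arylsulfatase A, had log2 intensities of 9.34, 9.35 and 9.65 in 4T1-MMP3lo, against 8.23, 8.64 and 8.59 in 4T1-SC, a difference of 0.96 (SE 0.20, adjusted p = 0.0745 from limma). Neu1, the lysosomal sialidase, had 8.86, 9.39 and 9.28 in 4T1-MMP3lo, against 8.09, 8.11 and 8.67 in 4T1-SC, a difference of 0.89 (SE 0.24, adjusted p = 0.15). For both genes each 4T1-MMP3lo array was above each 4T1-SC array. Hexa, the alpha subunit of beta-hexosaminidase, had 7.54, 8.57 and 8.50 in 4T1-MMP3lo, against 6.90, 7.55 and 7.69 in 4T1-SC. There the first 4T1-MMP3lo array lay among the 4T1-SC arrays, although the difference was positive on every date (0.63, 1.02 and 0.81). The median of the 10 genes was 0.14, and Arsb (−0.29, SE 0.20) and Naglu (−0.15, SE 0.34) lay below 0. Gusb, beta-glucuronidase, differed by 0.15 (SE 0.20).

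The 7 lipid hydrolases and activators all had positive differences, between 0.12 and 0.64 (against 52.3% of all genes above 0). None passed the test, before adjustment or after it (against 12.2% and 1.09% of all genes in either direction). Grn, the progranulin gene, whose product is cut into granulins in the lysosome, had log2 intensities of 11.38, 11.83 and 11.81 in 4T1-MMP3lo, against 10.50, 10.90 and 11.71 in 4T1-SC, a difference of 0.64 (SE 0.31, adjusted p = 0.472 from limma). The third 4T1-SC array reached the level of 4T1-MMP3lo. Smpd1, acid sphingomyelinase, differed by 0.39 (SE 0.29) and Gm2a, the activator of ganglioside breakdown, by 0.33 (SE 0.21). Asah1, acid ceramidase, differed by 0.12 (SE 0.23).

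Among the 8 membrane and cholesterol transport proteins the median difference was 0.11 and none passed (against 1.09% of all genes). Npc1, which moves cholesterol out of the lysosome together with Npc2, had log2 intensities of 8.70, 8.90 and 9.16 in 4T1-MMP3lo, against 8.34, 7.71 and 8.35 in 4T1-SC, a difference of 0.79 (SE 0.24, adjusted p = 0.203 from limma). Npc2 had 9.21, 9.50 and 9.51 in 4T1-MMP3lo, against 8.49, 10.56 and 9.93 in 4T1-SC. Npc2 thus ran in opposite directions by date, with 4T1-MMP3lo above 4T1-SC by 0.72 on the first date and below it by a difference of −1.06 and −0.42 on the later dates. On this brightest probe Npc1 was higher in 4T1-MMP3lo on all 3 dates. Its other kept, dimmer, probes differed by 0.25 (SE 0.18) and 0.41 (SE 0.28). The latter was lower in 4T1-MMP3lo on the second date (5.28, against 5.72 in 4T1-SC). The change of the Npc2 difference with date was 1.46 (SE 0.40, adjusted p = 0.18 from limma). Cln3, a membrane protein mutated in Batten disease, differed by 0.54 (SE 0.27, adjusted p = 0.482 from limma). The structural proteins had small differences of 0.13 (SE 0.17) for Lamp1 and −0.01 (SE 0.18) for the tetraspanin Cd63. Lamp2 depended on the probe, since its 5 kept probes ranged from −1.09 to 0.18.

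The proteases and the proton pump showed no shared difference between the groups. Of the 8 proteases 5 had a positive and 3 a negative difference (52.3% of all genes above 0), and the median was 0.12. None passed, before adjustment or after it (against 12.2% and 1.09% of all genes in either direction). Ctsh, a cathepsin with aminopeptidase activity, had log2 intensities of 10.53, 11.47 and 11.27 in 4T1-MMP3lo, against 11.05, 11.82 and 12.08 in 4T1-SC, a difference of −0.56 (SE 0.33, adjusted p = 0.57 from limma). This was the most negative difference among the 38 genes, and it was negative on every date. Tpp1, a tripeptidyl peptidase, differed by 0.43 (SE 0.28) and Ctsz by 0.33 (SE 0.23). Ctsb, the cathepsin B gene, differed by 0.04 (SE 0.24). The 4 pump genes lay between −0.15 for Atp6v1h (SE 0.18) and 0.19 for Atp6v1a (SE 0.36), with Atp6ap1, an accessory subunit, at −0.01 (SE 0.23).

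Leaving out the first date changed the count of calls for members and for the background alike. With the 4 arrays of the later dates, 5 of the 38 members passed as higher in 4T1-MMP3lo, namely Npc1, Hexa, Neu1, Manba and Arsa (13.2%), where 5.48% of all 9348 genes passed as higher and 10.8% passed in either direction. Without the first 4T1-SC array alone, Npc1, Manba and Arsa passed as higher and Npc2 as lower (10.5%, against 10.7% of all genes in either direction). The later dates leave 2 arrays per group, on which the spread then rests.

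By date, most lysosomal genes ran the same way, lower on the first date, in both groups. Of the 38 genes 33 had a lower value on the first date than on the later dates (86.8%, against 47.8% of all genes), and the median log2 difference was −0.42, beside 0.02 over all genes. Within 4T1-MMP3lo the median was −0.36 and within 4T1-SC it was −0.41, beside 0.03 in both groups over all genes. Before adjustment 16 of the 38 had a p under 0.05 and a lower value on the first date (42.1%, against 10.8% of all genes), and 0 had a higher one (against 10.9%). In 19 members both arrays of the first date lay below all 4 later arrays (50%, against 14.9% of all genes), and in 27 the first date was the lowest in both groups (71.1%, against 21.9%). The opposite order, with both first arrays above all later ones, held for Scarb2 and Gusb (5.26%, against 18.7%). Gla, counted in the 33, the 19 and the 27, was detected on later arrays only, so the filter fixed its direction by date. After adjustment Ctsl alone passed among the 38 (2.63%, against 0.396% of all genes that passed as lower), besides Gpnmb. In alternatives chosen after seeing the data that left out 1 array of the first date, 6 of the 38 passed as lower without the first array of 4T1-MMP3lo, namely Npc2, Ctsl, Naglu, Psap, Lipa and Atp6v0d1 (15.8%, against 6.36% of all genes), and 0 passed without the first array of 4T1-SC. The first date then has 1 array, which is assumed to vary like the later arrays. What differed between the dates, such as culture, extraction or hybridisation, cannot be told apart here.

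**Figure D3:**
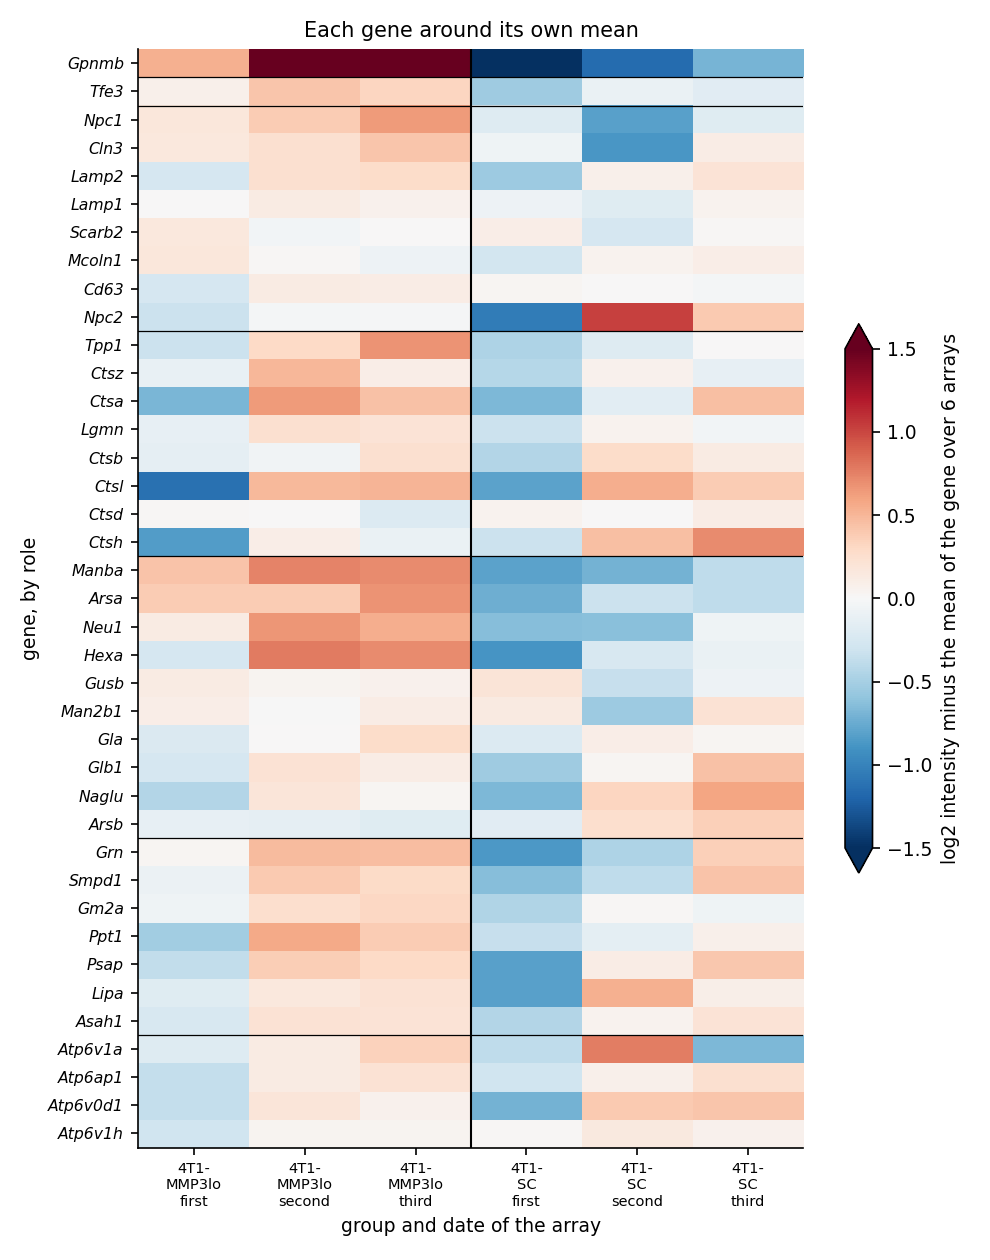
Log2 intensity of each of 39 genes minus its mean over the 6 arrays (colour), with genes in rows by role and arrays in columns, 4T1-MMP3lo left and 4T1-SC right, each in order of date. The first column of either group is the bluest for most rows, Gpnmb runs beyond the ends of the colour scale, and Manba, Arsa, Neu1 and Npc1 are redder in all 3 4T1-MMP3lo columns than in any 4T1-SC column.

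Ctsl, the cathepsin L gene, encodes a cysteine protease that matures in the lysosome and is also secreted by carcinoma cells. Its log2 intensities were 8.68, 10.29 and 10.31 in 4T1-MMP3lo, and 8.995, 10.34 and 10.19 in 4T1-SC. Both first-date arrays stood below all later arrays, and the groups overlapped. Ctsl fell by 1.45 on the first date relative to the later dates (SE 0.19, 95% interval −1.90 to −0.99, adjusted p = 0.0409 from limma), while the group difference was −0.08 (SE 0.51, adjusted p = 0.977 from limma). The date call was lost in 9 of 13 alternatives, with the adjusted p reaching 0.274. Its promoter is shown because Ctsl was the lysosomal gene that passed by date, and it holds the E-box CACGTG, in capitals, at position -236 from the start.
Ctsl (chr13:64370471-64370770, - strand): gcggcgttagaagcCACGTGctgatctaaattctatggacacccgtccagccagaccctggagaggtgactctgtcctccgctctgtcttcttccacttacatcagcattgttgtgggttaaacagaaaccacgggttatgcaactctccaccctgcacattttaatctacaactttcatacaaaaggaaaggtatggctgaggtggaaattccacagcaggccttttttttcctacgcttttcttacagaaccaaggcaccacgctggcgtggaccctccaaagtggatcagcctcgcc

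Other members with large date differences came from several roles, and none of these passed after adjustment. Npc2 differed by −1.03 (SE 0.35) and the serine carboxypeptidase Ctsa by −1.02 (SE 0.24). Psap, which encodes the precursor of the saposins that present lipids to hydrolases, had log2 intensities of 11.58, 12.32 and 12.25 in 4T1-MMP3lo, and 11.15, 12.07 and 12.36 in 4T1-SC, a date difference of −0.89 (SE 0.20, adjusted p = 0.0995 from limma). Both first arrays of Psap were the lowest. Ctsh (−0.87, SE 0.19), Hexa (−0.86, SE 0.19), Naglu (−0.84, SE 0.22), Atp6v0d1 (−0.81, SE 0.22), Lipa (−0.74, SE 0.24) and Ppt1 (−0.65, SE 0.23) had date differences of the same sign. By role the date median was −0.62 for lipid hydrolases and activators (negative in 7 of 7), −0.51 for proteases (7 of 8), −0.46 for the proton pump (4 of 4), −0.30 for glycosidases and sulfatases (8 of 10) and −0.06 for membrane and cholesterol transport proteins (6 of 8). The 8 negative glycosidases and sulfatases include Gla, whose direction by date the filter fixed. Over all genes the date median was 0.02, and 47.8% were negative. Of the 5 genes with the widest group differences, Hexa is among those just named, and Manba had a date difference of −0.28 (SE 0.19), Arsa of −0.27 (SE 0.19), Neu1 of −0.39 (SE 0.21) and Npc1 of −0.01 (SE 0.22).

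**Figure D4:**
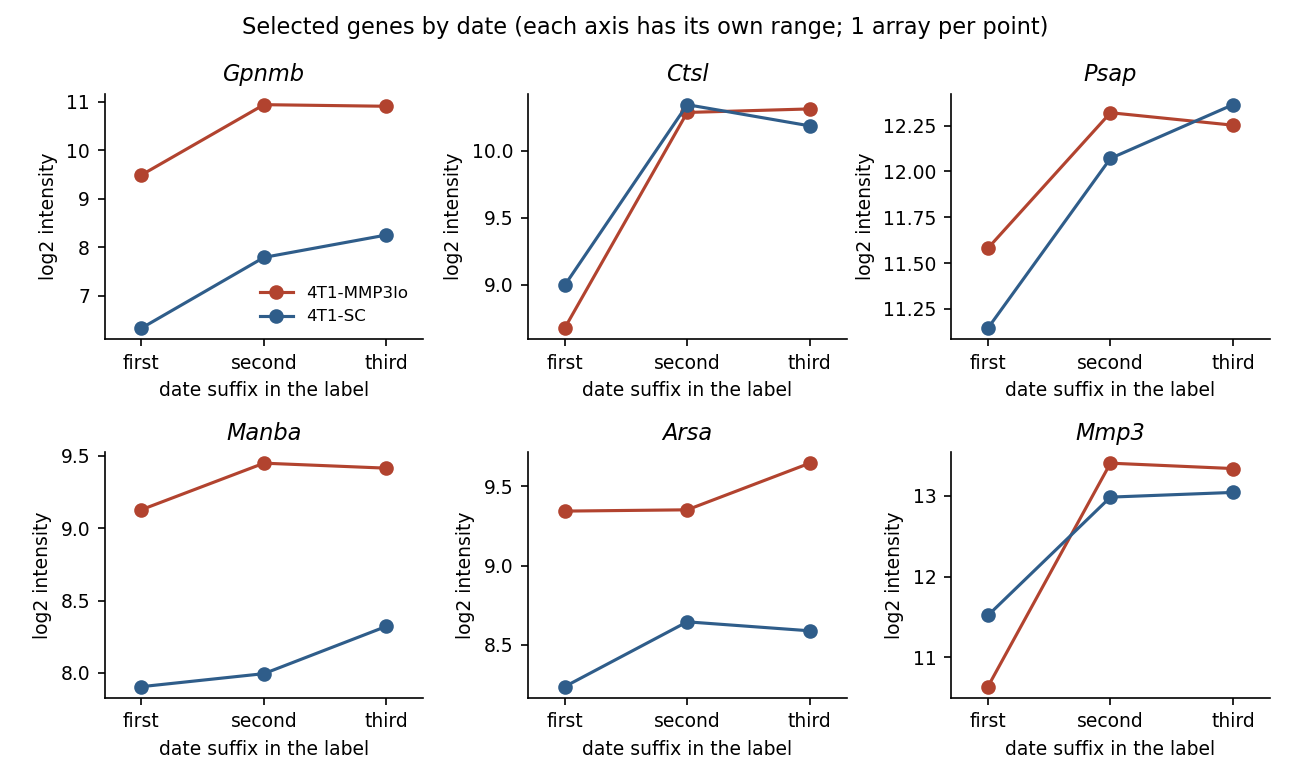
Log2 intensity (y axis, with its own range in each panel) of Gpnmb, Ctsl, Psap, Manba, Arsa and Mmp3 on the 3 dates in order (x axis), with 4T1-MMP3lo in red and 4T1-SC in blue and 1 array per point. All 6 genes are lowest on the first date in both groups, and 4T1-MMP3lo lies above 4T1-SC on every date for Gpnmb, Manba and Arsa but not for Ctsl, Psap and Mmp3.

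Whether the group difference of the lysosomal genes changed with date was tested directly. None of the 38 passed (against 0.877% of all genes), and before adjustment Npc2 alone had a p under 0.05 (2.63%, against 16.3% of all genes in either direction). The change was above 0 in 19 of the 38 (50%, against 49.4% of all genes). Each group has 1 array on the first date, which limits this test. Around each gene's own mean, the 38 genes had medians of −0.16, 0.22 and 0.23 on the 3 arrays of 4T1-MMP3lo, and of −0.44, 0.02 and 0.09 on those of 4T1-SC. The first array of 4T1-SC was thus the lowest of the 6. Without it the median group difference was 0.02, as given above, and without the first array of 4T1-MMP3lo it was 0.30. Each of these leaves the first date in 1 group only, and with both first arrays left out it was 0.14.

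**Figure D5:**
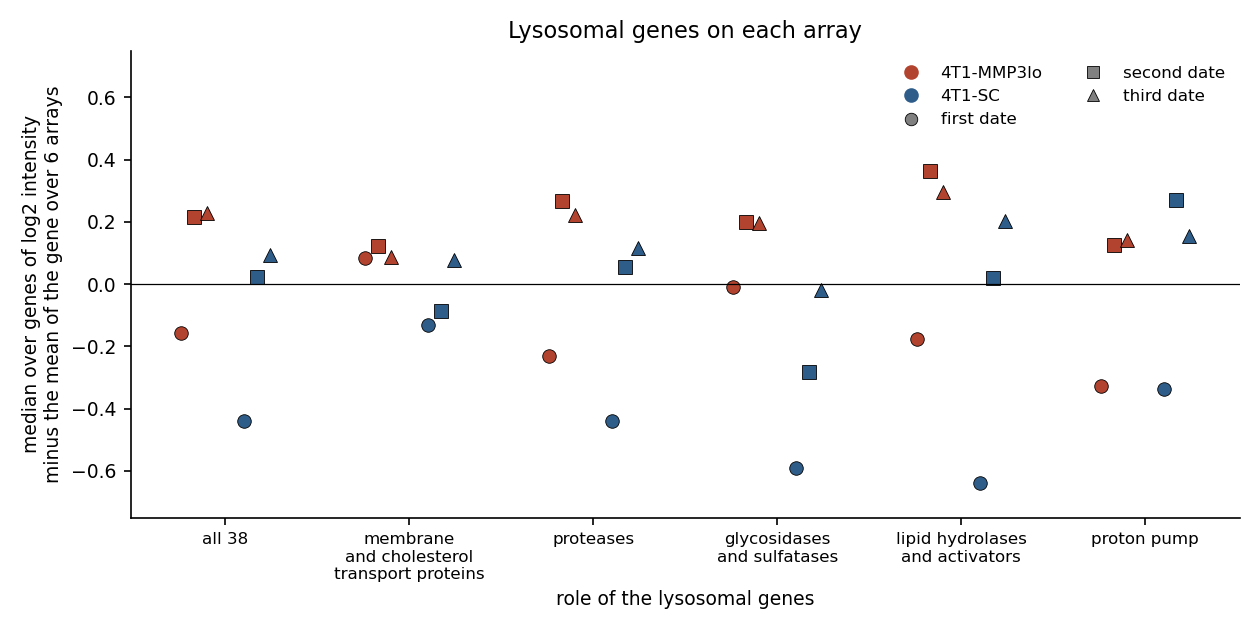
Median over genes of the log2 intensity minus the gene's mean over the 6 arrays (y axis), for all 38 lysosomal genes and by role (x axis), with 1 point per array, 4T1-MMP3lo (red) left of 4T1-SC (blue) and the shape giving the date. Over all 38 genes the first-date arrays are at −0.16 in 4T1-MMP3lo and −0.44 in 4T1-SC, below the 4 later arrays.

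Further genes of the same pathways were counted as whole lists. Of 140 listed genes for other hydrolases, membrane proteins, delivery to lysosomes, the proton pump, control of MiT/TFE factors by mTORC1, autophagy and partners of Gpnmb, 99 were measured. None of the 99 passed the test by group or by date, which few of all genes passed (1.09% by group and 0.481% by date). Of these, Cpq, Slc36a1 and Atp6v0e2 were detected in 4T1-MMP3lo only, so that the filter fixed their direction. Of the other 96, 11 had a p under 0.05 before adjustment as higher and 2 as lower in 4T1-MMP3lo (6.84% and 5.34% of all genes), and 58 had a difference above 0 and 38 below (52.3% of all genes above 0). By date, 6 of the 99 had a p under 0.05 before adjustment as higher and 17 as lower on the first date (10.9% and 10.8% of all genes), and 59 lay below 0 (47.8% of all genes). The medians over the 99 were 0.10 by group and −0.16 by date, each beside 0.02 over all genes. The group median includes Cpq, Slc36a1 and Atp6v0e2, whose direction the filter fixed. The date median, and the 59 genes below 0, include Laptm4b. That gene was detected on later arrays only, so that the filter fixed its direction by date. Slc11a1, a metal ion transporter of the phagosome and lysosome, had log2 intensities of 7.26, 6.75 and 7.58 in 4T1-MMP3lo, against 6.34, 6.20 and 5.97 in 4T1-SC, the largest difference of these genes at 1.03 (SE 0.24, adjusted p = 0.113 from limma). Its groups did not overlap. Atp6v1b2, a pump subunit, differed by −0.81 (SE 0.26) and Man2b2, an alpha-mannosidase, by −0.76 (SE 0.38). The 16 other hydrolases and activators, Cpq among them, had a median group difference of −0.05. The 12 genes of mTORC1 control had a median of 0.23, above 0 in 11 (52.3% of all genes, whose median was 0.02).

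Gpnmb and lysosomal genes are also abundant in macrophages, osteoclasts and melanocytes. Of 5 osteoclast and 6 melanocyte markers no probe was kept. Of 12 markers of macrophages and other leukocytes 4 were kept (Csf1r, Cd14, Aif1 and Mrc1), while Ptprc, Itgam, Adgre1 and Tyrobp were not. The summed intensity of these 4 was 479 to 654 in 4T1-MMP3lo and 339 to 572 in 4T1-SC, most of it from Cd14. On no array did Csf1r, Aif1 or Mrc1 exceed a log2 intensity of 5.52, near the background. The group difference was 0.29 (SE 0.28) for Cd14, −0.29 (SE 0.24) for Csf1r and −0.09 (SE 0.18) for Aif1. None of the 4 passed the test (against 1.09% of all genes). Before adjustment 1 did, Mrc1, which was detected in 4T1-MMP3lo only, so that the filter fixed its direction. Of 7 fibroblast markers Pdgfra was kept, with a group difference of 0.93 (SE 0.45, adjusted p = 0.47 from limma) and a date difference of −1.26 (SE 0.21, adjusted p = 0.0654), the same signs as Gpnmb. The part of other cells in the values of Gpnmb was not tested beyond these markers.

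Most members were measured well above background, and 37 of the 39 were detected on all 6 arrays. Ctsd was detected on 5 arrays (2 of 4T1-MMP3lo and 3 of 4T1-SC) and Gla on 3 (1 of 4T1-MMP3lo and 2 of 4T1-SC), so Gla stood just inside the limit, and Tfeb, with a probe detected on 2 arrays, just outside it. Of 17 members with several probes kept, 7 had probes of both signs, and in Cd63, Glb1, Man2b1, Arsb, Lipa and Atp6v0d1 these probes lay between −0.29 and 0.19.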

How the data were processed

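Per the labels, biotin-labelled total RNA was hybridised to 1-colour arrays. The authors deposited a table of intensity values and detection p-values per probe, not normalized, and a table of log2 values per array. Ranked by probe, the log2 values of each array matched its intensities with a correlation of 1, and their columns shared 1 distribution, as after quantile normalization. The software was not given in the sources used here. Intensities were corrected and quantile normalized with neqc in limma 3.58.1 (R 4.3.3), with negative controls inferred from the detection p-values and an offset of 16, so that low values are compressed. A probe took its gene from the platform annotation, in which 34885 of 45281 probes had 1 symbol, 18 had several and 10378 had none, and 34807 symbols were updated by gene identifier and 11 by accession. The 16969 probes kept gave 9348 genes.

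Groups were compared with lmFit and eBayes (n = 3 arrays per group), dates in a fit with group and date, and the change of the group difference with date by their interaction. P-values were two-sided and adjusted by Benjamini-Hochberg over all genes tested. The fits were tested on simulated data. Same-numbered arrays share a date in the labels, which pairs them, and the block was run as an alternative. Their deviations correlated at 0.44, 0.21 and 0.28, but at 0.31 and 0.23 with the numbers 2 and 3 crossed, so the correlations separate the first date from the later dates and not the later dates from each other. With 6 arrays, their number limits the precision. Other alternatives were no background correction, the deposited log2 table, an offset of 50, a median shift, other filters, the mean of all probes, the methods' t-test and leaving out arrays. The members, gene lists and tests were chosen with earlier results of these data known. Named were all probes of Gpnmb, the MiT/TFE factors, Mmp3, members that passed a test, the 3 largest differences per role and contrast, the brightest member of each role, members whose probes differed in sign and the other genes that passed or were the 3 largest. Figures were drawn with matplotlib 3.10.9.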

Additional observations from a re-analysis of the deposited data

Results flagged for a closer look

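Of 91 probes for the 41 genes, 24 were not kept, and 6 of these were detected on an array of 4T1-MMP3lo but on none of 4T1-SC. These were a probe each of Ctsa (2 arrays of 4T1-MMP3lo), Gpnmb (2 arrays), Lamp2 (2 arrays), Glb1 (1 array), Mitf (1 array) and Npc1 (1 array). The reverse, detection on an array of 4T1-SC and on none of 4T1-MMP3lo, was seen for 2 probes. The same counts were not made over all probes left out on these arrays, so no lean of the members can be read from them. The Gpnmb probe had log2 intensities of 4.71, 4.95 and 4.98 in 4T1-MMP3lo and 4.42, 4.39 and 4.40 in 4T1-SC, and against the lowest detected signal it was at least 1.10-fold higher in 4T1-MMP3lo. These signals are close to background and took no part in the comparisons.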

How the results depend on the processing

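The group difference of Gpnmb kept its sign in all alternatives and ranged from 2.42 to 3.46 when single arrays were left out, but was 1.89 as the mean of all its probes. The count of 1 lysosomal gene past the test by group became 0 with no background correction, the authors' log2 table, no detection filter, the mean of all probes or the methods' t-test, 5 on the later dates alone (an alternative chosen after seeing the data), and 0 to 4 without single arrays. All genes past it numbered 102, and 12 with no background correction or the authors' table, 38 with an offset of 50, 50 for probes detected on all 6 arrays, 30 with no filter, 0 with the t-test (1054 before adjustment), 1012 on the later dates alone, and 0 to 1000 without single arrays. With the replicate block that pairs arrays by date 194 genes passed, Manba among them, and the block changed the call of no member. The median group difference of the 38 genes was 0.0223 to 0.2991 without single arrays, and 0.1404 on the later dates alone.

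By date, the count of 1 became 0 with no background correction, the authors' table, a median shift or no filter, and 0 to 6 without single arrays. All genes numbered 45, and 13 with no background correction or the authors' table, 23 with a median shift, 0 with no filter (2848 before adjustment), 86 with the mean of probes, and 6 to 1040 without single arrays. The date median was −0.33 with no background correction or the authors' table, −0.38 with an offset of 50, −0.49 with a median shift, and −0.42 to −0.36 without single arrays. For the change of the group difference with date, the count of 0 members became 1 with a median shift (Npc2) and 0 to 2 without single arrays, and the 82 genes became 24 with no background correction or the authors' table, 53 with an offset of 50, 224 with a median shift, 52 for probes detected on all 6 arrays, 0 with no filter (2400 before adjustment), and 22 to 1257 without single arrays. The causes were not tested.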
